A study of Mus musculus with 6 samples.

Results

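Genes for fatty acid oxidation and ketone body metabolism, together with known targets of the nuclear receptor PPARA, were compared between the livers of A/J-12SM and A/J mice. The set holds 36 genes chosen by name, of which 20 act in mitochondria, 9 in peroxisomes and 3 in microsomes, and 4 are other PPARA targets or regulators. Each gene was represented by 1 probe set, which on these arrays is several short probes read together as 1 signal, that is annotated to that gene alone and has the highest mean log2 signal over all 6 arrays. On this rule 34 of the 36 genes were measured, out of 18193 genes with a probe set of their own.

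Long-chain fatty acids enter mitochondria as carnitine esters and are then shortened in a repeated cycle of oxidation, hydration, oxidation and cleavage. In the liver much of the resulting acetyl-CoA is turned into ketone bodies, which other organs burn during fasting. Peroxisomes shorten very long and branched chains, and the CYP4A enzymes of the endoplasmic reticulum hydroxylate fatty acids at the terminal carbon. PPARA is activated by fatty acids and switches on genes of all these routes in the liver, and mice that lack it cannot raise fat oxidation properly when they fast.

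The liver data consist of 3 arrays of A/J-12SM mice and 3 arrays of A/J mice, all male and all given a high-fat diet for 7 weeks. A/J-12SM is a consomic strain that carries chromosome 12 of the SM/J strain on the A/J background, while A/J is the strain it was built on. The RNA on each array was combined from 3 mice, so a replicate is a pool and the spread between single mice is not seen. None of the members lies on chromosome 12, the chromosome that sets the strains apart by construction.

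The deposited values are MAS5 signals, which were quantile-normalized on the log2 scale, so that every array has the same distribution, and compared with limma. All differences are A/J-12SM minus A/J on this log2 scale, so that a negative value means a lower signal in A/J-12SM liver. The trimmed mean of the deposited signals ranged from 172 to 187 in A/J-12SM and from 202 to 215 in A/J arrays, which makes the zero of the scale a matter of normalization. Relative to the deposited values, quantile normalization moved the median difference of all genes to -0.01, against -0.22 before it. A/J-12SM replicate 3 had a 5′ to 3′ actin signal ratio of 0.423, below the range of the other A/J-12SM arrays, 0.553 and 0.561, and of the A/J arrays, 0.571 to 0.590. On this ratio every A/J-12SM array lay below every A/J array. For Gapdh the ratio of A/J-12SM replicate 3, 1.53, lay within the range of the other arrays, 1.45 to 1.55. A/J-12SM replicate 3 was also the lowest of all 6 arrays for 16 of the 34 genes, and the part of RNA quality in the results was not tested.

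Under quantile normalization most oxidation genes had similar signals in both strains, and a small number of members had lower signals in A/J-12SM liver. Some of these are known PPARA targets, but the PPARA targets Ehhadh, at 0.09, and Cyp4a14, at 0.08, overlapped between the strains. The largest differences were those of Vnn1, a pantetheinase, at -0.86, Pex11a, a protein of peroxisome division, at -0.68, and Cyp4a12a, a fatty acid omega-hydroxylase, at -0.61. No member passed limma's test after Benjamini-Hochberg adjustment over all probe sets, where Vnn1 came closest (adjusted p = 0.0575). Among all genes, 12 passed, or 0.066%. At an unadjusted p under 0.05 there were 5 members, all of them lower in A/J-12SM liver (Cpt1a, Eci1, Pex11a, Cyp4a12a and Vnn1), while 3.39% of all genes were lower by this rule. The number was 3 (Pex11a, Cyp4a12a and Vnn1) without A/J replicate 2 and with 1 prior variance for all probe sets. The same 3 were left with the arrays centred on their medians or scaled to 1 trimmed mean, beside 2.47% and 3.57% of all genes. With the values as deposited the number was 10, where 15.2% of all genes were lower by this rule.

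In 9 of the 34 members, or 26.5%, all 3 A/J-12SM arrays lay below all 3 A/J arrays, and under this normalization in no member was the order reversed. All A/J-12SM arrays were lower for 6.34% of all genes and higher for 5.97%, and they were lower in 7.17% of genes at or above the median brightness, to which all 34 members belong. These 9 members were Cpt1a, Echs1, Eci1, Etfdh and Acat1 of the mitochondria, Abcd3 and Pex11a of the peroxisomes, Cyp4a12a of the microsomes, and Vnn1. Of all 34 members, 27 had lower and 7 had higher values in A/J-12SM liver, with a median of -0.07 and a range of -0.86 to 0.19. Over all genes the median was -0.01 and 50.9% were lower. This count of lower members depends on the scaling, since 34 were lower with the values as deposited, 14 with each array centred on its median, and 15 with each array scaled to 1 trimmed mean. The split of 9 lower and 0 higher members without overlap depends on it too. It was 16 and 0 as deposited, where 21.2% of all genes were lower without overlap and 1.32% higher. After median centring it was 3 and 1, beside 4.82% and 4.56% of all genes. With the trimmed mean it was 6 and 5, beside 6.28% and 6.05%, and Acadvl, Hadh, Ehhadh, Crot and Cyp4a14 were higher.

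Under quantile normalization, absence of a large difference could be stated for most of the members. The 95% confidence interval of the difference lay wholly within a 1.5-fold change in either direction, 0.585 on the log2 scale, for 28 of the 34 members. The other members were Vnn1, Pex11a and Cyp4a12a, whose estimates lie beyond this limit, and Crat, Acaa1a and Pdk4, whose arrays varied widely. For comparison, the interval met this limit in 61.0% of genes at or above the median brightness, a share that depends on how tightly the replicates lie. These counts hold for quantile normalization only, since the differences move with the scaling. With the values as deposited, Eci1 differed by -0.41 (SE 0.12) and Cpt1a by -0.39 (SE 0.10). After median centring they differed by -0.17 and -0.15.

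**Figure D1:**
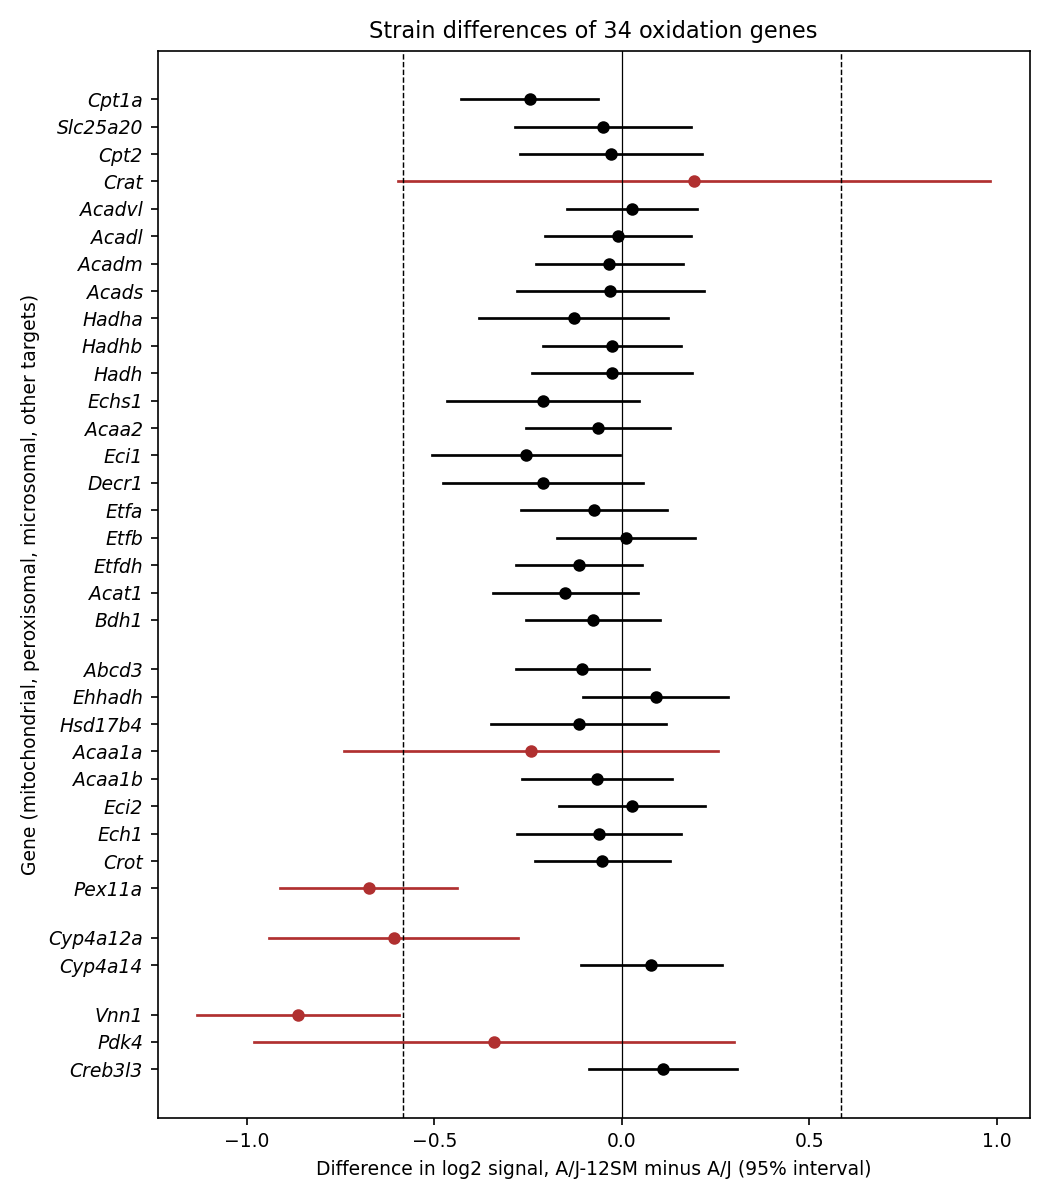
Strain difference in log2 signal (x axis, A/J-12SM minus A/J) with its 95% confidence interval from limma for each of the 34 measured genes (y axis), grouped by compartment. Dashed lines mark 1.5-fold, and red marks the 6 genes whose interval reaches beyond a dashed line; those of Vnn1, Pex11a, Cyp4a12a, Cpt1a and Eci1 lie wholly below 0.

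Of the 9 members without overlap between the strains, 6 have an entry among the RefSeq promoter sequences of GRCm38.p6, and these are shown. Each is the stretch of 250 bases before the annotated start, written 5′ to 3′ on the strand of the gene. The half-site AGGTCA, to which nuclear receptors such as PPARA and its partner RXR bind in pairs, was searched on both strands and is set in capitals, where TGACCT is the same site read on the other strand.
Cpt1a (GRCm38.p6, chr19:3323051-3323300, plus strand): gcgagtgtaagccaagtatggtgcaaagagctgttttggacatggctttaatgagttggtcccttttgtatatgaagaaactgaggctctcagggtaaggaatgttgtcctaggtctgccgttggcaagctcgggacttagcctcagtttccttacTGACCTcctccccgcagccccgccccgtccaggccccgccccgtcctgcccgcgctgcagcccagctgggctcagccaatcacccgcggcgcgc
Echs1 (GRCm38.p6, chr7:140116422-140116671, minus strand): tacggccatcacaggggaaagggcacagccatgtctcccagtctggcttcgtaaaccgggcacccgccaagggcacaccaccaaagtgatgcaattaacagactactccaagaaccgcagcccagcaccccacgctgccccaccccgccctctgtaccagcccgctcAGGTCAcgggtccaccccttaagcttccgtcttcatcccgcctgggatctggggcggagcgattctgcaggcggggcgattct
Eci1 (GRCm38.p6, chr17:24426433-24426682, plus strand): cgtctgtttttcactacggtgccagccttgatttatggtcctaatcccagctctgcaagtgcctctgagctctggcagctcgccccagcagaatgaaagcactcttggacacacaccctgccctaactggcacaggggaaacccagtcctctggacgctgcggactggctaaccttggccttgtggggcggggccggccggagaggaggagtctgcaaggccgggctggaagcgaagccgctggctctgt
Etfdh (GRCm38.p6, chr3:79628768-79629017, minus strand): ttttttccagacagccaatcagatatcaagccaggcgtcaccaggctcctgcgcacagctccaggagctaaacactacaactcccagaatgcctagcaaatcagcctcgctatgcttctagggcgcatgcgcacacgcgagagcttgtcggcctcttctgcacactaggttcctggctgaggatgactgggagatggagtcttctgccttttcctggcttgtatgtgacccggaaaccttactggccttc
Abcd3 (GRCm38.p6, chr3:121815303-121815552, minus strand): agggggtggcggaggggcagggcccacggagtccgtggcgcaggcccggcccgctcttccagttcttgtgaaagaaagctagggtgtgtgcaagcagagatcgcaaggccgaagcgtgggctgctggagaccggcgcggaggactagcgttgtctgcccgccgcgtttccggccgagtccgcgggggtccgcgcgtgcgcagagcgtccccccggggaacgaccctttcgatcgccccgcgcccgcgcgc
Pex11a (GRCm38.p6, chr7:79743132-79743381, minus strand): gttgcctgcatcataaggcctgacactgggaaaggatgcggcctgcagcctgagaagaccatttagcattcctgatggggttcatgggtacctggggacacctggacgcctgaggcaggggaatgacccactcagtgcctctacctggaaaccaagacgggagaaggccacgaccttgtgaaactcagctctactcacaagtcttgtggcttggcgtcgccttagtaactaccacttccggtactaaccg
The Cpt1a window lies inside the annotated span of the gene, before a start further downstream, and of the 2 starts listed for Abcd3 the upstream one is shown. The half-site was found in 2 of these 6 genes. Its first base lies 94 bases before the start in Cpt1a and 83 bases before it in Echs1, and the windows of Eci1, Etfdh, Abcd3 and Pex11a hold none. Of the members, 27 were matched to this table by symbol, and 5 of them (Acadm, Acadvl, Cpt1a, Creb3l3 and Echs1) held the half-site, against 14% of all 32851 promoters. The repeat AGGTCANAGGTCA, the spacing that PPARA and RXR prefer, was found in none of the members and in 0.0335% of all promoters. Cyp4a12a, Vnn1, Decr1, Acat1, Cyp4a14, Acaa2, Crat, Cyp4a10 and Hsd17b4 are not in the table used. A match of these letters is a description of the sequence, and whether PPARA binds there was not measured.

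The mitochondrial enzymes had small differences, with 17 of 20 lower in A/J-12SM liver, a median of -0.06 and a range of -0.26 to 0.19. Entry into mitochondria showed the clearest case. Cpt1a, which transfers long-chain fatty acids to carnitine on the outer membrane and limits the rate of their oxidation, had log2 signals of 11.95, 11.93 and 11.78 in A/J-12SM liver, against 12.13, 12.16 and 12.10 in A/J liver. All A/J-12SM arrays were below all A/J arrays, and the A/J arrays lay close together. The difference was -0.25 (SE 0.08, 95% interval -0.43 to -0.06), a 1.19-fold lower signal in A/J-12SM (adjusted p = 0.684 from limma). On chromosome 19 of GRCm38.p6, Cpt1a starts at 3322326.

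In the probe sets used, the rest of the carnitine shuttle gave no such pattern. Slc25a20, the carrier that moves acylcarnitines through the inner membrane, differed by -0.05, and Cpt2, which returns the acyl group to coenzyme A in the matrix, by -0.03. Crat, which handles short chains, had the widest spread of the mitochondrial genes, with a difference of 0.19 (SE 0.35) that its arrays do not resolve. A second, dimmer set of Slc25a20 was lower without overlap, at -0.22 (adjusted p = 0.80 from limma). So was the dimmest set of Crat, at -0.33 (adjusted p = 0.85 from limma). The second sets of Cpt2 and Crat overlapped, at -0.46 and -0.28.

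The first oxidation step showed no difference as large as 1.5-fold. The very long, long, medium and short chain acyl-CoA dehydrogenases, Acadvl, Acadl, Acadm and Acads, had differences between -0.03 and 0.03, and the interval of each lay within the 1.5-fold limit. Their strains overlapped in every case.

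The later steps of the cycle were all on the lower side, by -0.03 to -0.21. Echs1, the short-chain enoyl-CoA hydratase, had log2 signals of 12.15, 12.17 and 11.76 in A/J-12SM liver, against 12.21, 12.21 and 12.30 in A/J liver. Its arrays did not overlap, but 1 of the A/J-12SM arrays stood well below the rest, so the mean difference of -0.21 (SE 0.11, adjusted p = 0.83 from limma) became -0.08 without A/J-12SM replicate 3. Hadha, the alpha subunit of the trifunctional protein that carries out the last steps on long chains, showed the same low array, with 11.54, 11.61 and 11.20 in A/J-12SM liver, against 11.57, 11.64 and 11.53 in A/J liver. Its difference was -0.13 (SE 0.11) and the strains overlapped, and without A/J-12SM replicate 3 the difference was -0.0012. Hadhb, the beta subunit, and Hadh, the dehydrogenase of shorter chains, each differed by -0.03, and Acaa2, the thiolase, by -0.06.

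Of the enzymes that prepare unsaturated fatty acids for the cycle, Eci1 and Decr1 had lower values. Eci1, the mitochondrial enoyl-CoA isomerase, had log2 signals of 11.81, 11.86 and 11.45 in A/J-12SM liver, against 11.93, 11.97 and 11.99 in A/J liver. The strains did not overlap, with replicate 3 of A/J-12SM again the lowest array. The difference of -0.26 (SE 0.11, adjusted p = 0.80 from limma) was the largest among the mitochondrial genes and became -0.13 without that array. Decr1, the dienoyl-CoA reductase, differed by -0.21 with overlap of the strains and by -0.068 without that array.

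Electrons from the dehydrogenases pass through the flavoprotein subunits Etfa and Etfb to the oxidoreductase Etfdh. Etfdh had log2 signals of 12.11, 12.12 and 12.11 in A/J-12SM liver, against 12.28, 12.21 and 12.20 in A/J liver. Its arrays agreed closely within each strain and did not overlap, but the difference was only -0.11 (SE 0.08, adjusted p = 0.85 from limma). Etfa and Etfb differed by -0.07 and 0.01 with overlap.

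Ketone body metabolism was represented by Acat1 and Bdh1. Acat1, the mitochondrial acetoacetyl-CoA thiolase, had log2 signals of 13.32, 13.35 and 13.17 in A/J-12SM liver, against 13.48, 13.40 and 13.40 in A/J liver. The A/J-12SM arrays were all lower, by -0.15 in the mean (SE 0.09, adjusted p = 0.83 from limma). Bdh1, which interconverts acetoacetate and hydroxybutyrate, differed by -0.08 with overlap. Its second, dimmer set was lower without overlap, at -0.16 (adjusted p = 0.82 from limma).

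**Figure D2:**
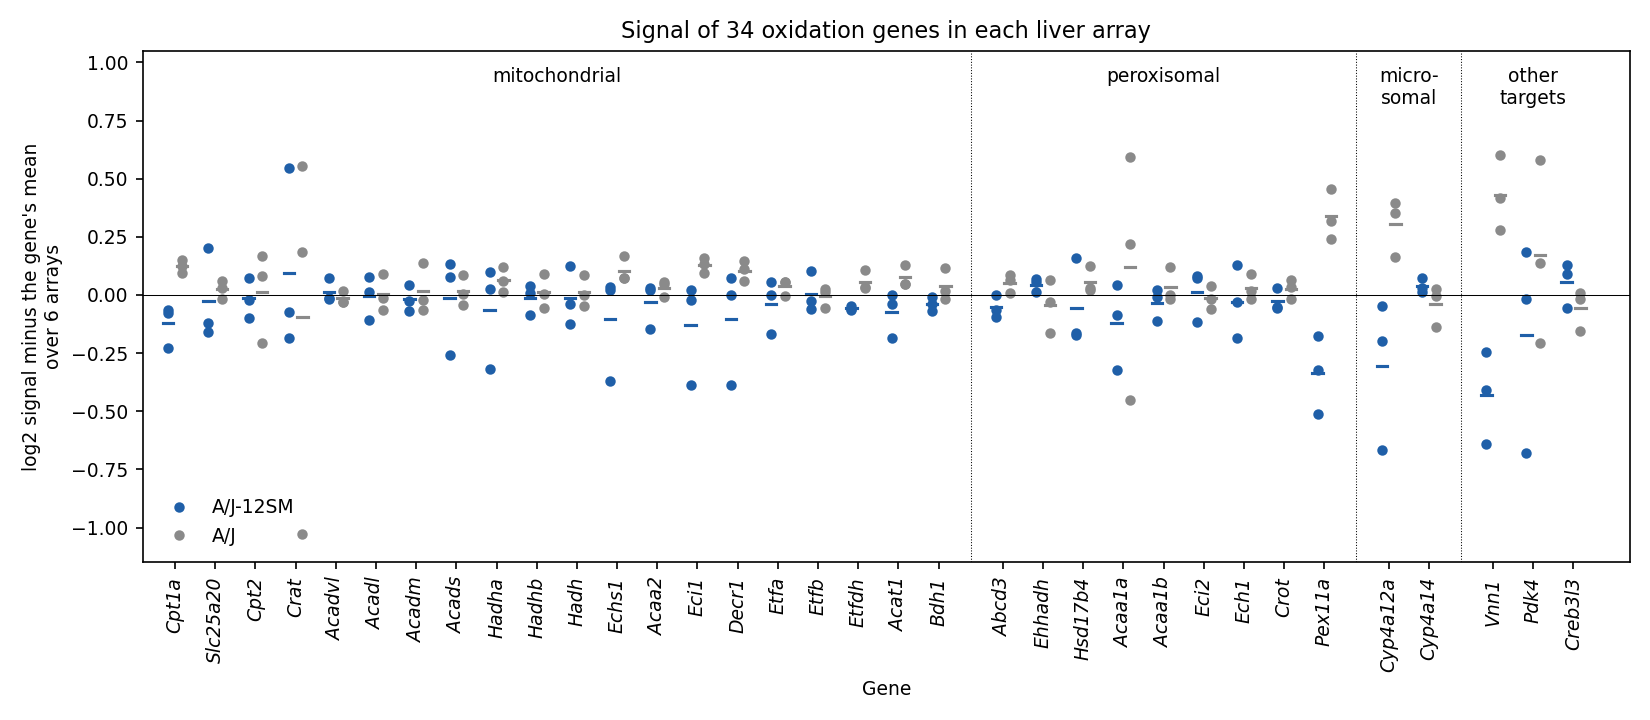
Normalized log2 signal of each gene (x axis) in each array, given as the distance from the mean of that gene over 6 arrays (y axis, log2 units), in A/J-12SM (blue) and A/J liver (grey). Points are single arrays and short lines are strain means; Pex11a, Cyp4a12a and Vnn1 stand apart by -0.68, -0.61 and -0.86, while most other genes lie close to 0.

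Among the 9 peroxisomal genes, 7 had lower values and the median was -0.07, and the difference of Pex11a was larger than that of any of the 8 others. Pex11a, a membrane protein that elongates peroxisomes before they divide and a known PPARA target, is encoded between 79735957 and 79743131 on chromosome 7 (GRCm38.p6). Its log2 signals were 10.43, 10.57 and 10.24 in A/J-12SM liver, against 10.99, 11.21 and 11.07 in A/J liver. Even the highest A/J-12SM array lay well below the lowest A/J array. The means were 10.41 ± 0.17 in A/J-12SM and 11.09 ± 0.11 in A/J liver (SD, n = 3 arrays each), a difference of -0.68 (SE 0.11, 95% interval -0.91 to -0.44) or a 1.60-fold lower signal in A/J-12SM, with an adjusted p = 0.102 from limma.

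A second, dimmer Pex11a probe set gave a like result. It read 9.15, 9.09 and 9.01 in A/J-12SM liver, against 9.61, 9.68 and 9.67 in A/J liver, a difference of -0.57 (adjusted p = 0.105 from limma). Leaving out any 1 array kept the difference of the first set between -0.76 and -0.58. With the values as deposited it was -0.87 and passed the threshold (adjusted p = 0.0214 from limma), while over all alternatives the adjusted p ranged up to 0.723, its value with 1 prior variance.

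The peroxisomal oxidation enzymes had smaller differences. Ehhadh, the bifunctional enzyme of straight chains and a classic PPARA target, had log2 signals of 12.62, 12.63 and 12.58 in A/J-12SM liver, against 12.63, 12.40 and 12.53 in A/J liver. The strains overlapped, and the difference was 0.09 (SE 0.09, adjusted p = 0.90 from limma), although it was -0.05 with the values as deposited. Hsd17b4, the bifunctional enzyme of branched chains and bile acid precursors, differed by -0.12 with overlap. Its second set was lower without overlap, at -0.15 (adjusted p = 0.83 from limma).

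Import and export of acyl groups also differed little. Abcd3, a transporter of the peroxisomal membrane, had log2 signals of 13.11, 13.01 and 13.04 in A/J-12SM liver, against 13.19, 13.12 and 13.17 in A/J liver. These values do not overlap, but the difference of -0.11 (SE 0.08) had a positive sign with each array centred on its median, 0.04, or scaled to 1 trimmed mean, 0.01. Crot, which couples the shortened chains to carnitine for export, differed by -0.05. Eci2 and Ech1, which act on unsaturated chains, differed by 0.03 and -0.06.

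The peroxisomal thiolases Acaa1a and Acaa1b are nearly identical, so part of their signal may come from each other. The probe set of Acaa1b alone differed by -0.07, and that of Acaa1a by -0.24 (SE 0.22) with a wide spread. Both of the probe sets annotated to these genes jointly were lower without overlap, at -0.21 and -0.11, and cannot be assigned to either gene.

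Of the microsomal CYP4A genes, 1 was lower in A/J-12SM liver without overlap and 1 overlapped. Cyp4a12a, an omega-hydroxylase that in mice is higher in males and is also controlled by androgen and growth hormone, lies on chromosome 4 from 115299046 to 115332815. It had log2 signals of 12.22, 12.37 and 11.75 in A/J-12SM liver, against 12.81, 12.77 and 12.58 in A/J liver. The strains were apart, with means of 12.11 ± 0.32 in A/J-12SM and 12.72 ± 0.12 in A/J liver (SD, n = 3 arrays each) and the widest gap between replicates at A/J-12SM replicate 3. The difference was -0.61 (SE 0.15), a 1.53-fold lower signal in A/J-12SM, with an adjusted p = 0.45 from limma, and it was -0.42 without A/J-12SM replicate 3. Cyp4a12b, a near copy of this gene, has no probe set of its own here and may contribute to the signal.

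Cyp4a14, another omega-hydroxylase, is induced strongly by fasting and by PPARA agonists. Its log2 signals were 13.20, 13.18 and 13.24 in A/J-12SM liver, against 13.16, 13.03 and 13.19 in A/J liver. The strains overlapped, and the difference was 0.08 (SE 0.08, 95% interval -0.11 to 0.27), or -0.01 with the values as deposited.

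Cyp4a10, a further PPARA-induced omega-hydroxylase, was covered only by a probe set that it shares with Cyp4a31. That probe set read 13.65, 13.51 and 13.67 in A/J-12SM liver, against 13.66, 13.53 and 13.53 in A/J liver, with overlap and a difference of 0.04. It cannot be assigned to either gene, so Cyp4a10 was counted as not measured.

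Vnn1 had the largest difference of all members. It encodes vanin 1, which releases pantothenate and cysteamine in the breakdown of coenzyme A, and its expression in liver is strongly driven by PPARA. The gene lies on chromosome 10 from 23894688 to 23905344. Its log2 signals were 10.72, 11.12 and 10.96 in A/J-12SM liver, against 11.64, 11.96 and 11.78 in A/J liver. The strains were separated by more than the range within either of them. The means were 10.93 ± 0.20 in A/J-12SM and 11.80 ± 0.16 in A/J liver (SD, n = 3 arrays each), a difference of -0.86 (SE 0.12, 95% interval -1.13 to -0.59) or a 1.82-fold lower signal in A/J-12SM.

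The second Vnn1 probe set pointed the same way. It had log2 signals of 9.20, 9.46 and 9.74 in A/J-12SM liver, against 10.16, 10.47 and 10.47 in A/J liver, a difference of -0.90 (adjusted p = 0.12 from limma). For the first set, leaving out any 1 array gave differences from -0.95 to -0.76, with adjusted p-values from 0.101 to 0.345 from limma. The adjusted p was under the threshold with the values as deposited (0.0170) and without dim probe sets (0.0279), where fewer probe sets are tested, and it was 0.626 with 1 prior variance and 0.662 with the methods' t-test, so the call on Vnn1 lies at the threshold and turns on the processing.

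Pdk4, a kinase that shuts off pyruvate dehydrogenase when fat is burned and a known PPARA target, was dimmer and more variable. It had log2 signals of 6.34, 5.68 and 6.55 in A/J-12SM liver, against 6.50, 6.16 and 6.94 in A/J liver. With this overlap the difference of -0.34 (SE 0.29, 95% interval -0.98 to 0.30) was not resolved. Creb3l3, a liver transcription factor that acts together with PPARA, differed by 0.11 with overlap, and Ucp2, a mitochondrial carrier, was not analysed here. The median of these 3 measured genes, -0.34, is the value of Pdk4, and it was -0.09 without A/J-12SM replicate 2 and -0.13 without A/J replicate 3.

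**Figure D3:**
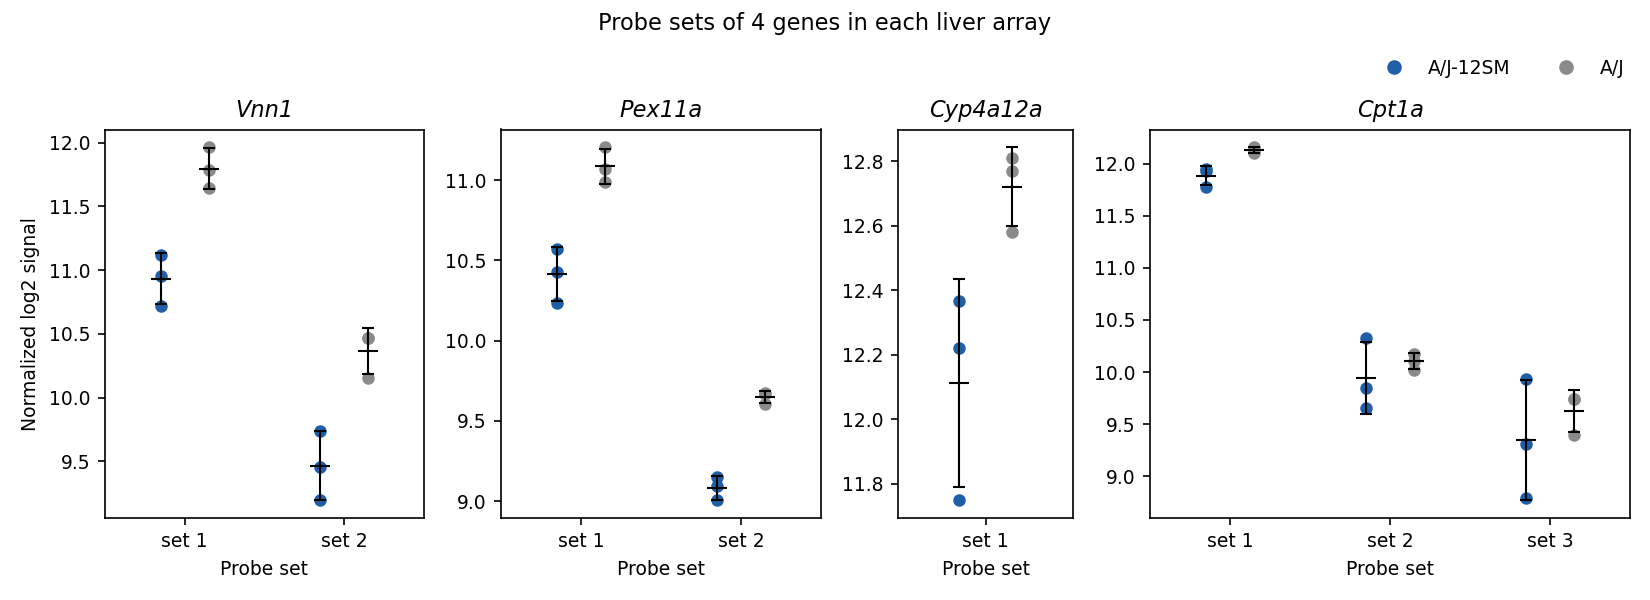
Normalized log2 signal (y axis, with a scale of its own in each panel) of every probe set annotated to Vnn1, Pex11a, Cyp4a12a or Cpt1a alone (x axis, ordered by brightness) in A/J-12SM (blue) and A/J liver (grey); each point is an array, and the bars give the mean and SD of the 3 arrays of a strain. The strains are apart in both sets of Vnn1 (-0.86 and -0.90) and of Pex11a (-0.68 and -0.57), whereas the dimmer sets of Cpt1a overlap.

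Other probe sets of the same genes gave a further reading, though of the same RNA. Of the members, 18 had more than 1 probe set, with 24 further sets in all. In these sets, 22 had lower and 2 had higher values in A/J-12SM liver, with a median of -0.17, and 8 were lower without overlap. Over all 45037 probe sets 49.95% were lower, and 5.83% were lower without overlap. With other scalings, counted after the values had been seen, 24, 19 and 22 of the 24 were lower (as deposited, median-centred, trimmed mean). Over all probe sets 74.2%, 47.8% and 51.8% were lower in these scalings. Without overlap, 13, 4 and 6 of the 24 were lower, beside 17.9%, 4.78% and 5.90% of all probe sets. The dimmer sets of Cpt1a differed by -0.16 and -0.28 with overlap of the strains. Crat disagreed with itself, at 0.19 in its brightest set and at -0.28 and -0.33 in the others. The brightest sets of Crat, Hadh, Hsd17b4 and Acaa1a are of the type that the manufacturer marks as holding probes that can match other transcripts, which limits what they say of these genes.

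A comparison within arrays takes out whatever scales all members alike, and was chosen after the values had been seen. Relative to the median of the other measured members of the same array, the strain difference was -0.79 for Vnn1, -0.60 for Pex11a and -0.58 for Cyp4a12a, without overlap between the strains. It was -0.17 for Cpt1a and -0.19 for Eci1, also without overlap. The differences of Echs1, Etfdh, Acat1 and Abcd3 were between -0.14 and 0.02 on this measure, and their strains overlapped. In every one of the 15 alternative ways of processing, Vnn1, Pex11a and Cyp4a12a were lower in A/J-12SM liver without overlap and with an unadjusted p under 0.05.

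**Figure D4:**
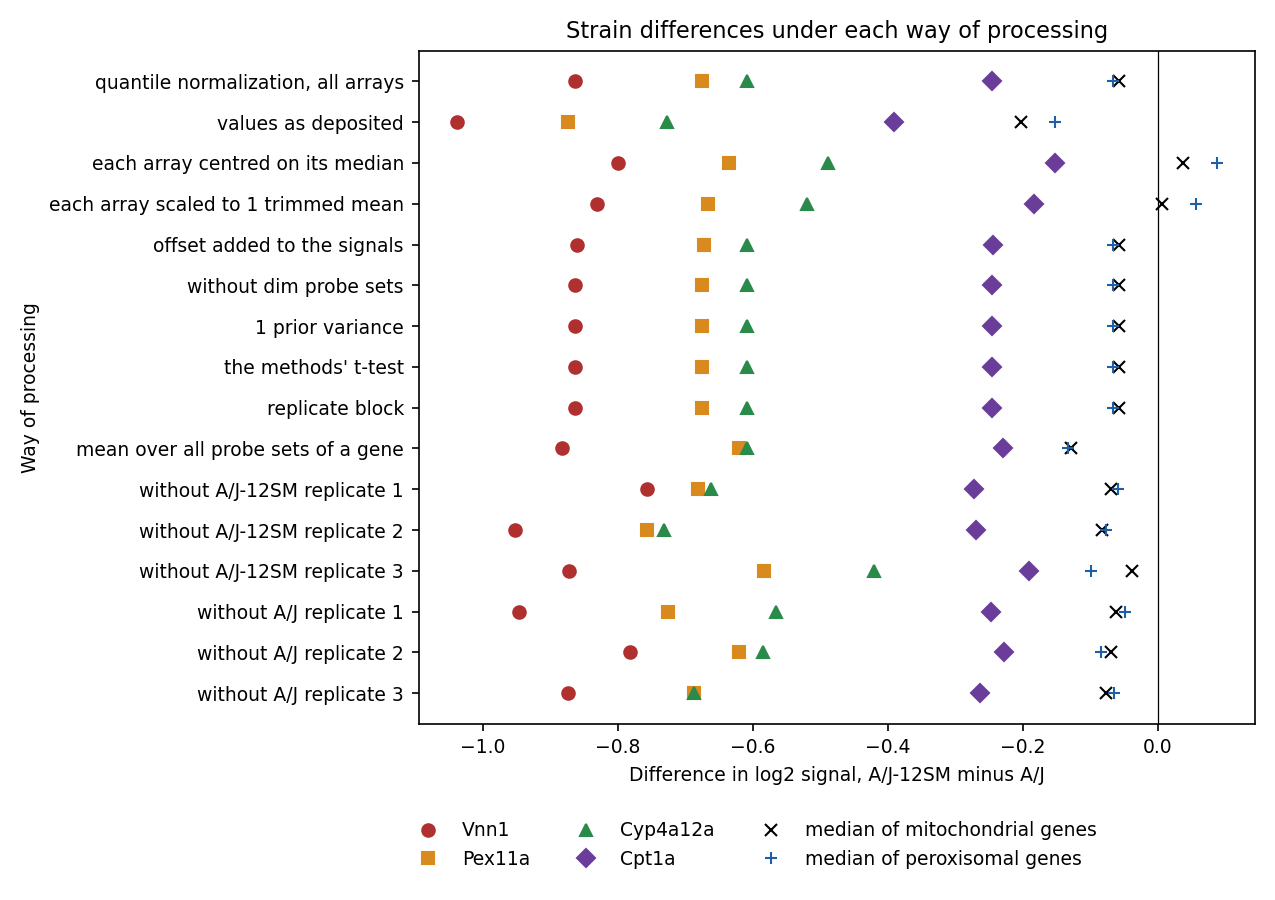
Strain difference in log2 signal (x axis, A/J-12SM minus A/J) of Vnn1, Pex11a, Cyp4a12a and Cpt1a, and the medians of the mitochondrial and peroxisomal genes, under each way of processing (y axis). The single genes stay below 0 in every row, while the medians lie on either side of 0, at -0.20 and -0.15 with the values as deposited and at 0.04 and 0.09 with each array centred on its median.

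Other genes of these pathways were examined as a list of 69, of which 60 were measured. Their median was -0.03, with 35 lower and 25 higher, none passed after adjustment, and 6 had an unadjusted p under 0.05, 4 of them lower and 2 higher, where 3.39% of all genes fall in each direction. Ppara itself had log2 signals of 12.16, 11.90 and 12.13 in A/J-12SM liver, against 12.04, 12.08 and 12.05 in A/J liver, a difference of 0.01 (SE 0.09) with overlap. The lower genes were Plin2, which coats lipid droplets, at -0.42, Slc16a1, a carrier of lactate and ketone bodies, at -0.37, Fabp2, a fatty acid-binding protein, at -0.34, and Pex16, a factor of peroxisome assembly, at -0.20.

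The higher genes were Ppargc1b, a coactivator of nuclear receptors, at 0.44, and Acot1, an acyl-CoA thioesterase and PPARA target, at 0.66. Ppargc1b read 9.10, 8.935 and 9.74 in A/J-12SM liver, against 8.930, 8.73 and 8.79 in A/J liver. Its strains barely missed overlap, and A/J-12SM replicate 3 was the highest array. Acot1 lies on chromosome 12 from 84009502 to 84017670, on the chromosome that A/J-12SM mice have from SM/J. Its log2 signals were 9.75, 10.09 and 10.13 in A/J-12SM liver, against 9.49, 9.12 and 9.39 in A/J liver. The arrays did not overlap (SE 0.13, adjusted p = 0.317 from limma), and the direction was opposite to that of Vnn1 and Pex11a. Probes designed on another strain can match the SM/J sequence less or better, and this was not tested for Acot1. Gpd1, at -0.21, and Aldh3a2, at -0.23, came next by p and had p-values of 0.0516 and 0.0553 from limma.

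Cell type markers were read in the same arrays, because in bulk liver fewer cells of a type and less RNA per cell cannot be told apart. Hepatocyte markers were slightly higher in A/J-12SM liver, in 8 of 11 genes with a median of 0.08, and their summed linear signal ranged from 162170 to 163570 in A/J-12SM and from 154108 to 158950 in A/J arrays. Markers of Kupffer cells and macrophages were lower in 14 of 14 genes, with a median of -0.27, and their sum ranged from 7078 to 8685 in A/J-12SM and from 8020 to 10168 in A/J arrays. None of the markers of these 2 lists was below the median brightness of all probe sets, and none passed after adjustment. Of all genes at or above that brightness, 50.5% were lower. Without overlap, 2 of the 14 macrophage markers were lower and 3 of the 11 hepatocyte markers were higher. Among all 11041 genes at or above that brightness, 7.17% were lower without overlap and 752 were higher without overlap. These counts are from quantile normalization. Stellate cell markers had a median of 0.03 with sums of 5333 to 6027 in A/J-12SM and 4670.0 to 5462 in A/J arrays, endothelial markers a median of 0.02 with sums of 5526 to 5815 in A/J-12SM and 5191 to 5297 in A/J arrays, and lymphocyte markers, mostly dim, a median of -0.18 with sums of 326 to 422 in A/J-12SM and 333 to 466 in A/J arrays. The part of these cell types in the differences of Vnn1, Pex11a and Cyp4a12a was not tested.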

How the data were processed

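Liver RNA of A/J-12SM and A/J mice was hybridized to Affymetrix arrays with a single label, 3 arrays per strain and 3 pooled mice per array. The authors deposited intensity values, MAS5 signals on a linear scale with 1 value per probe set and array; how they were scaled is not stated in the sources used here. Strain and replicate number came from the sample labels. From these values log2 signals were quantile-normalized, and 45037 probe sets were compared with limma 3.58.1 in R 4.3.3 (lmFit, eBayes with a trend on brightness) after 64 control probe sets were left out, with Benjamini-Hochberg adjustment over all of them and a threshold of 0.05. This normalization takes most genes to be alike in both strains. Of the probe sets, 34945 name 1 gene in the platform annotation, 932 several and 9160 none, and 34741 were matched to RefSeq (GRCm38.p6). The members, gene lists, roles and the 1.5-fold limit were chosen with earlier results of these data known. Signals in every array are given for members without overlap of the strains or with an unadjusted p under 0.05, for microsomal members, for Cpt1a, Hadha, Ehhadh and Pdk4, and for the largest difference of each class. Of the other pathway genes, up to 8 by p are named, and Ppara was added. The limma step was tested on simulated data. With 3 arrays per strain the precision is limited, and replicates had a typical SD of 0.21 (log2) above the median brightness and of 0.86 below it. The 15 alternatives were other scalings (as deposited, median, trimmed mean of the signals after 2% were cut at each end), an offset of 9.2, no dim probe sets (below the 40th percentile), 1 prior variance, the methods' t-test, a replicate block, the average of every probe set of a gene, and leaving out each array. Plots were made in Python 3.11.15 (matplotlib 3.10.9).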

Additional observations from a re-analysis of the deposited data

How the results depend on the processing

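The zero of the log2 scale set most of the list values. With the values as deposited the medians were -0.20 for all members, -0.20 for mitochondrial, -0.15 for peroxisomal and -0.59 for other PPARA target genes, while 16 members did not overlap, 10 had an unadjusted p under 0.05 and 2 were called, Vnn1 and Pex11a. There the median of all genes was -0.22, with 21.2% of genes lower without overlap and 15.2% lower at an unadjusted p under 0.05. After adjustment 20 of all genes passed there. After median centring of the arrays, the medians were 0.040, 0.037 and 0.087 for all, mitochondrial and peroxisomal members and -0.13 for microsomal ones. In that setting 4 members did not overlap, 3 lower and 1 higher, and 3 had an unadjusted p under 0.05. Of all genes, 4.82% were lower and 4.56% higher without overlap there, and 2.47% were lower at an unadjusted p under 0.05. With each array scaled to 1 trimmed mean, the 3 medians were 0.0096, 0.0060 and 0.057, and 3 members had such a p, as they also did with 1 prior variance. In these 2 settings 3.57% and 2.41% of all genes were lower at such a p. With every probe set of a gene averaged, the 3 medians were each -0.13. Among the members whose signals are given in every array, 3 changed sign with the scaling. These were Abcd3 (0.041 with median centring and 0.010 with the trimmed mean), Ehhadh (-0.047 as deposited) and Cyp4a14 (-0.014 as deposited). Other members changed sign too, since 27 of the 34 were lower under quantile normalization, 34 as deposited and 14 after median centring.

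The number of called members was 1, Vnn1, without dim probe sets and with the replicate block (adjusted p = 0.0144 from limma). Without dim probe sets, 15 of 12618 genes passed. Arrays with the same replicate number correlated at -0.06, 0.09 and 0.16 in their deviations from the strain means, and only number 3 correlated best with its own number. With 3 arrays per strain, these correlations cannot decide whether the numbers pair the arrays. The block changed no other call among the members, and with it 14 of all genes passed, against 12 without it. Leaving out 1 array gave 0 called members each time, and 3 to 6 members with an unadjusted p under 0.05 (3 without A/J replicate 2). In these runs 2 to 8 of all genes passed after adjustment, and 2.18% to 4.17% were lower at an unadjusted p under 0.05. There were then 11 to 13 members without overlap, with 9 to 12 of them lower and 0 to 2 higher. Of all genes, 10.2% to 12.5% were then lower without overlap and 9.75% to 11.7% higher. The medians ranged from -0.08 to -0.06 for all members and from -0.53 to -0.087 for other PPARA targets (-0.087 without A/J-12SM replicate 2). The cause of these changes was not tested. With the methods' t-test 0 members were called after adjustment and 6 had an unadjusted p under 0.05, all lower. In that setting 0 of all 18193 genes passed after adjustment, and 3.09% were lower at an unadjusted p under 0.05. Brightness limits Pdk4 most, the dimmest member, which was brighter than 64.2% of probe sets.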
